A study of Mus musculus with 36 samples.

Results

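The cytosolic ribosomal protein genes were taken as every probe whose array gene symbol reads as a large-subunit (Rpl), small-subunit (Rps) or stalk (Rplp0, Rplp1, Rplp2) gene, with the S6 kinase genes left out. The rule used symbols only and no measured value. It found 90 probes of 61 genes among the 45281 probes and 19057 named genes of the array, with 41 genes on 1 probe and 20 genes on several. A probe was tested where it was detected (detection p under 0.05) on at least 3 of the 36 arrays, and 83 member probes of 56 genes passed among 23999 probes of all genes. The 7 that did not pass were 1 probe each of Rpl17, Rpl37, Rpl39l, Rpl6, Rps23, Rps24 and Rps4l, so nothing is said of Rpl17, Rpl39l, Rpl6, Rps23 and Rps4l, which had no other probe. Rpsa, a small-subunit protein also known as a laminin receptor, is not matched by the pattern and is given separately, and Rpl5 and Rpl11 of the 5S particle have no probe under those symbols here.

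Cytosolic ribosomal proteins assemble with ribosomal RNA into the large and small subunits of the ribosome, and their mRNAs are among the most abundant of a growing cell. In mammals these mRNAs begin with a C followed by a run of pyrimidines, the 5′ terminal oligopyrimidine (TOP) tract, through which the kinase mTOR and the RNA-binding protein LARP1 control how well they are translated and how stable they are. Pluripotent cells are known for high ribosome biogenesis and a rapid cell cycle, and some ribosomal proteins, such as Rpl38 in the mouse embryo, are known to be needed for the translation of particular mRNAs. Arrays of total RNA read the level of a transcript and not its translation.

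Mouse epiblast stem cells (EpiSC), pluripotent cells like those of the epiblast after implantation, were grown on Matrigel in filtered medium conditioned by mouse embryonic fibroblasts with added bFGF and Activin, and total RNA was read on 36 Illumina MouseWG-6 v2 bead arrays. Retinoic acid (RA), made from vitamin A, is a morphogen under which such cells differentiate. The first schedule (RA 36 h, 11 arrays) had it at 5 µM through 36 h, with a drug for 24 h. The second (RA 24 h, 12 arrays) had the same RA dose for 24 h and a drug for 36 h, and the third (no RA, 13 arrays) had mock morphogen for 36 h and a drug for 24 h. Each schedule held 1 array of Mock (basal medium) and 1 array of each of 10 compounds, and fibroblast-conditioned medium (CM) in place of a drug had 2 arrays without RA and 1 with RA for 24 h. The compounds were Rapamycin at 100 nM (mTOR inhibitor), Wortmannin at 50 nM (PI3 kinase inhibitor), PF573228 at 250 nM (focal adhesion kinase inhibitor) and Dorsomorphin dihydrochloride at 2 µM (inhibitor of BMP receptors and AMPK). The others were BAY 11-7082 at 25 µM (inhibitor of NF-kB activation), Forskolin at 50 µM (activator of adenylyl cyclase), BAPTA-AM at 10 µM (calcium chelator), Docetaxel at 500 pM (microtubule stabiliser), Purmorphamine at 2 µM (Smoothened agonist) and SU5402 at 2 µM (FGF receptor inhibitor). Separate cultures are not named in the labels, so each p measures how far single arrays spread, part of which may be technical, and precision is limited by how many arrays there are. RA 24 h and RA 36 h differ in the time with drug as well as the time with RA.

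The annotated starts of the member genes are shown first, because the TOP tract is the feature through which Rapamycin is known to act on these mRNAs. RefSeq promoter sequences (build GRCm38.p6) were found for 50 of the 61 genes. The motif searched was a C followed by at least 5 bases that are each C or T, with its C within 5 bases of an annotated start on the gene's strand. It was present in 21 of the 50 genes (42%) and in 3229 of 27025 genes of the table (11.9%). On the other strand the shares were 6% of members and 15.1% of all genes. Within 20 bases the shares were 68% of members and 36% of all genes. Windows of 8 genes follow, each with 20 bases before and 20 bases from the start. They were picked among genes with called changes named below, a paralogue pair, and Rps6, which encodes the substrate that gives S6 kinase its name. Other genes with large called changes, such as Rps13, Rps3 and Rps15, are not printed and have no tract within 5 bases. The share with a tract among the 8 therefore does not stand for that of the 50. Capitals mark the tract from its first matching C within 5 bases of the start, so a run that begins further upstream is marked only in part. A window all in lower case has none within 5 bases of that start.
Rpl38, chr11:114668560-114668599, plus strand: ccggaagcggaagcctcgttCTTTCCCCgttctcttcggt
Rps6, chr4:86857348-86857387, minus strand: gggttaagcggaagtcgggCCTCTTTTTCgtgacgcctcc
Rpl14, chr9:120571497-120571536, plus strand: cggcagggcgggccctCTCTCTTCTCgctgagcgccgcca
Rpl7a, chr2:26910787-26910826, plus strand: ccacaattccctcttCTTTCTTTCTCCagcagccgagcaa
Rpl22l1, chr3:28805488-28805527, plus strand: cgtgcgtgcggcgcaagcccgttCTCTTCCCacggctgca
Rpl22, chr4:152325706-152325745, plus strand: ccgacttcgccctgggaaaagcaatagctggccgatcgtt
Rps3a1, chr3:86142649-86142688, minus strand: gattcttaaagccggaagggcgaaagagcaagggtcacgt
Rpl7l1, chr17:46782637-46782676, minus strand: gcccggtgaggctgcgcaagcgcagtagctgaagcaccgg

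Rpl38, Rps6, Rpl14, Rpl7a and Rpl22l1 carry the motif with a C within 5 bases of the annotated start. Rpl22, Rps3a1 and Rpl7l1 do not in these windows. Only in Rpl38 do the capitals open at the start itself. Those of Rps6, Rpl14 and Rpl7a open 1, 4 and 5 bases before it, and those of Rpl22l1 open at base 4. In Rpl14 and Rpl7a the run of pyrimidines, with further C bases, begins upstream of the capitals. A match in these letters is a description of the annotated start and not of the start used in these cells.

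Member probes were among the brightest of the array. Over the 83 tested probes the median of the mean normalised log2 intensity was 13.83, against 6.66 over all tested probes, and 46 of the 90 ranked in the brightest 1% (452 probes). Of the tested members, 46 had a mean of at least 13, which 1.91% of all tested probes reached, 20 lay from 9 to under 13 and 17 lay under 9. The lowest mean was 4.71 (Rpl3l) and the highest 15.61 (Rplp1). Spread over the 11 matched arrays of a schedule depended on brightness, with a median SD of 0.08 on the log2 scale for the 46 bright probes and 0.26 for the 17 dim ones. The dim probes include the only probes of Rps20 and Rpl14, genes of which other mammalian cells carry abundant mRNA, and what these probes read was not tested. Near-identical processed copies of many ribosomal protein genes lie in the mouse genome, so a single probe can read more than its gene.

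**Figure D1:**
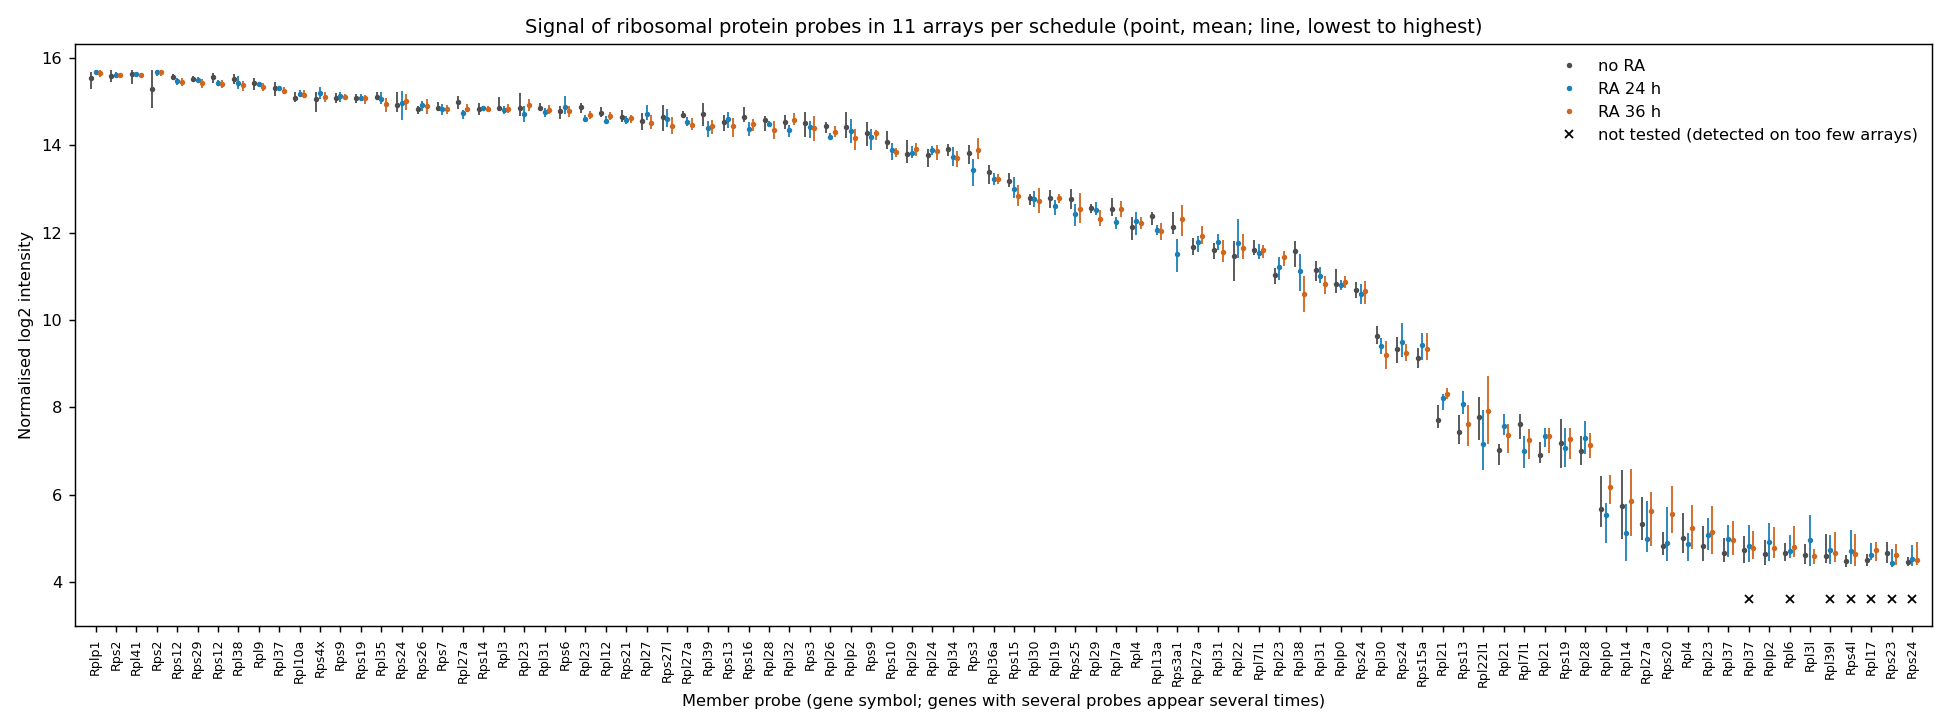
Normalised log2 intensity of the 90 member probes (vertical axis) in order of brightness (horizontal axis), as the mean (point) and the lowest to highest value (line) of 11 arrays each without RA, with RA for 24 h and with RA for 36 h; crosses mark the 7 probes not tested. The 46 brightest tested probes have a mean of at least 13, and for most of them the lines of the 3 schedules overlap.

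Taken as a share of all raw signal, the members held between 6.05% and 7.33% of an array's signal without RA (SD 0.39, n = 11). After 24 h of RA the share was 6.85% ± 0.31 (n = 11), and after 36 h it was 6.65% ± 0.23 (n = 11). These ranges overlap in all 3 schedules. The mean raw intensity of all probes was lower with RA, at 544 ± 84 (n = 11) units without RA, 421 ± 63 with RA for 24 h and 430 ± 47 with RA for 36 h, and that of members moved beside it (19474 ± 2178, 15661 ± 1718 and 15573 ± 1396). Changes below are therefore relative to the rest of the array. After schedule means were removed, the median Pearson correlation between pairs of bright members over the 36 arrays was 0.017, against 0.001 between pairs of other bright probes.

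Of 8 epiblast markers 8 were detected on most arrays without RA and 7 with RA, and 7 fell with RA for 36 h. The other, Sox2, rose by 1.18 after 36 h (limma adjusted p = 7.9e-07) and did not pass after 24 h (-0.31). The summed log2 level of all 8 lay between 84.9 and 87.9 on the arrays without RA. It lay between 51.9 and 61.5 on the arrays with RA. Neural ectoderm markers were 1 of 4 detected on most arrays without RA (summed level at most 24.4), 3 with RA for 24 h (at least 24.6) and 4 with RA for 36 h (30.3 to 32.7). Fibroblast markers were 3 of 7 without RA (41.1 to 43.7), 4 of 7 with RA for 24 h (40.5 to 46.1) and 4 of 7 with RA for 36 h (43.4 to 47.8). Extraembryonic endoderm markers were 3 of 6 in each schedule (29.9 to 34.4, 32.3 to 36.1 and 33.2 to 37.9). Summed epiblast and neural ectoderm levels thus did not overlap between arrays with and without RA. Those of fibroblast and extraembryonic endoderm markers overlapped between schedules. After 36 h 4 fibroblast markers rose and 1 fell, and 2 endoderm markers rose and 0 fell. After 24 h 3 fibroblast markers rose and 1 fell, and 3 endoderm markers rose and 2 fell. These shifts lay beside the RA comparisons below, and the part of cell identity in the members' changes was not tested. In bulk samples, fewer cells of a type and less RNA per cell cannot be told apart. Slides 1 to 6 split almost wholly by schedule, and the 2 cannot be told apart except through the Mock array without RA, which shared a slide with 5 arrays of RA 36 h.

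The first comparison, RA for 36 h with no RA, asks how the members respond as the cells differentiate. Changes were small: 12 member probes rose and 24 fell (36 of 83, 43.4%; limma, adjusted p under 0.05), where 55% of all tested probes passed. By direction, 26% of all probes rose and 29% fell. The median change was -0.008 on the log2 scale (-0.028 over all probes), 32 of 83 members changed by less than 0.1 and 4 by more than 0.5. Large-subunit probes gave 7 rises and 15 falls among 44, small-subunit probes 3 and 6 among 29, stalk probes 2 and 1 among 5, and paralogue probes 0 and 2 among 5. Among the 46 bright members 2 rose and 17 fell, while among 413 other probes as bright 99 rose and 81 fell. Among the 17 dim members 7 rose and 1 fell. These directions depend on the scaling: without quantile normalisation the members gave 15 rises and 21 falls (arrays centred on the median) or 20 and 17 (on the 75th percentile), and the authors' values gave 21 and 26. The bright members gave 9 and 19, 4 and 14, and 7 and 11 in the authors', median-centred and 75th-percentile values. Under all 5 scalings 11 member probes rose and 17 fell, 3 were called in both directions and 30 were never called.

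The largest change was that of the dimmer Rpl38 probe. Rpl38 is a large-subunit protein that mouse embryos need to translate a set of Hox mRNAs. This probe read 11.22, 11.57 and 11.81 (lowest, median and highest of 11 arrays) without RA, 10.66, 11.23 and 11.50 with RA for 24 h, and 10.19, 10.56 and 11.01 with RA for 36 h. All arrays without RA lay above all arrays of RA 36 h, and the RA 24 h arrays lay between and overlapped both. It fell by 0.98 (SE 0.095, 1.98-fold, limma adjusted p = 9.6e-10), lower in 11 of 11 matched treatments. The brighter Rpl38 probe read 15.40, 15.49 and 15.62 without RA and 15.24, 15.38 and 15.46 with RA for 36 h, and the groups overlapped. Its change of -0.13 (adjusted p = 0.022) lost its call with slide as a random block (adjusted p = 0.063). It turned to 0.06 in the authors' values and to 0.07 and 0.12 without quantile normalisation, so the fall was read by 1 of the gene's 2 probes under every scaling.

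Other falls with the same sign in 11 of 11 treatments were those of Rpl30, Rpl7l1, Rps15 and Rpl28. The dimmer probe of Rpl30, a large-subunit protein known to bind its own transcript in yeast, read 9.45, 9.62 and 9.86 without RA and 8.87, 9.17 and 9.51 with RA for 36 h, the groups overlapping only at their edges. It fell by 0.42 (SE 0.069, adjusted p = 9.7e-06), and the brighter Rpl30 probe did not pass (-0.06, adjusted p = 0.44). Rps15, a small-subunit protein, read 13.04, 13.14 and 13.36 without RA against 12.60, 12.90 and 13.10 with RA for 36 h, with overlapping groups, and fell by 0.32 (SE 0.064, adjusted p = 0.0001). The brighter Rpl28 probe read 14.32, 14.60 and 14.67 without RA against 14.14, 14.38 and 14.55 after 36 h and fell by 0.25 (SE 0.051, adjusted p = 0.00014). Rpl13a, a large-subunit protein also known in human cells for translational silencing, fell by 0.34 (SE 0.054, adjusted p = 5.5e-06) and was lower in 10 of 11 treatments, Mock being the exception. Rpl29 (dimmer probe, -0.26), Rpl39 (-0.26), Rps10 (-0.22), Rpl34 (-0.18) and Rpl35 (-0.16) also fell.

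Rises were led by probes of low signal. Rps20, a small-subunit protein, read 4.62, 4.80 and 5.13 without RA, 4.47, 4.85 and 5.72 with RA for 24 h and 5.11, 5.57 and 6.20 with RA for 36 h. The RA 36 h group lay highest and met the group without RA at its edge, and the probe was detected on 14 of 36 arrays. It rose by 0.73 (SE 0.105, adjusted p = 1.2e-06, 11 of 11 treatments), and over 5 scalings its change ran from 0.09 to 0.85 with the call kept. All 3 probes of Rpl21 rose, by 0.60 (adjusted p = 9.8e-09), 0.44 (1.8e-06) and 0.36 (0.00032). The brightest of them read 7.52, 7.65 and 8.06 without RA, 7.93, 8.23 and 8.29 with RA for 24 h, and 8.18, 8.26 and 8.45 with RA for 36 h. The arrays of RA 36 h all lay above those without RA, and its change over the scalings ran from 0.26 to 0.63. Of the bright probes, 1 of the 2 Rps2 probes rose by 0.38 (SE 0.066, adjusted p = 2.3e-05, 10 of 11 treatments) and the other did not move beyond its error (0.00, adjusted p = 0.95).

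**Figure D2:**
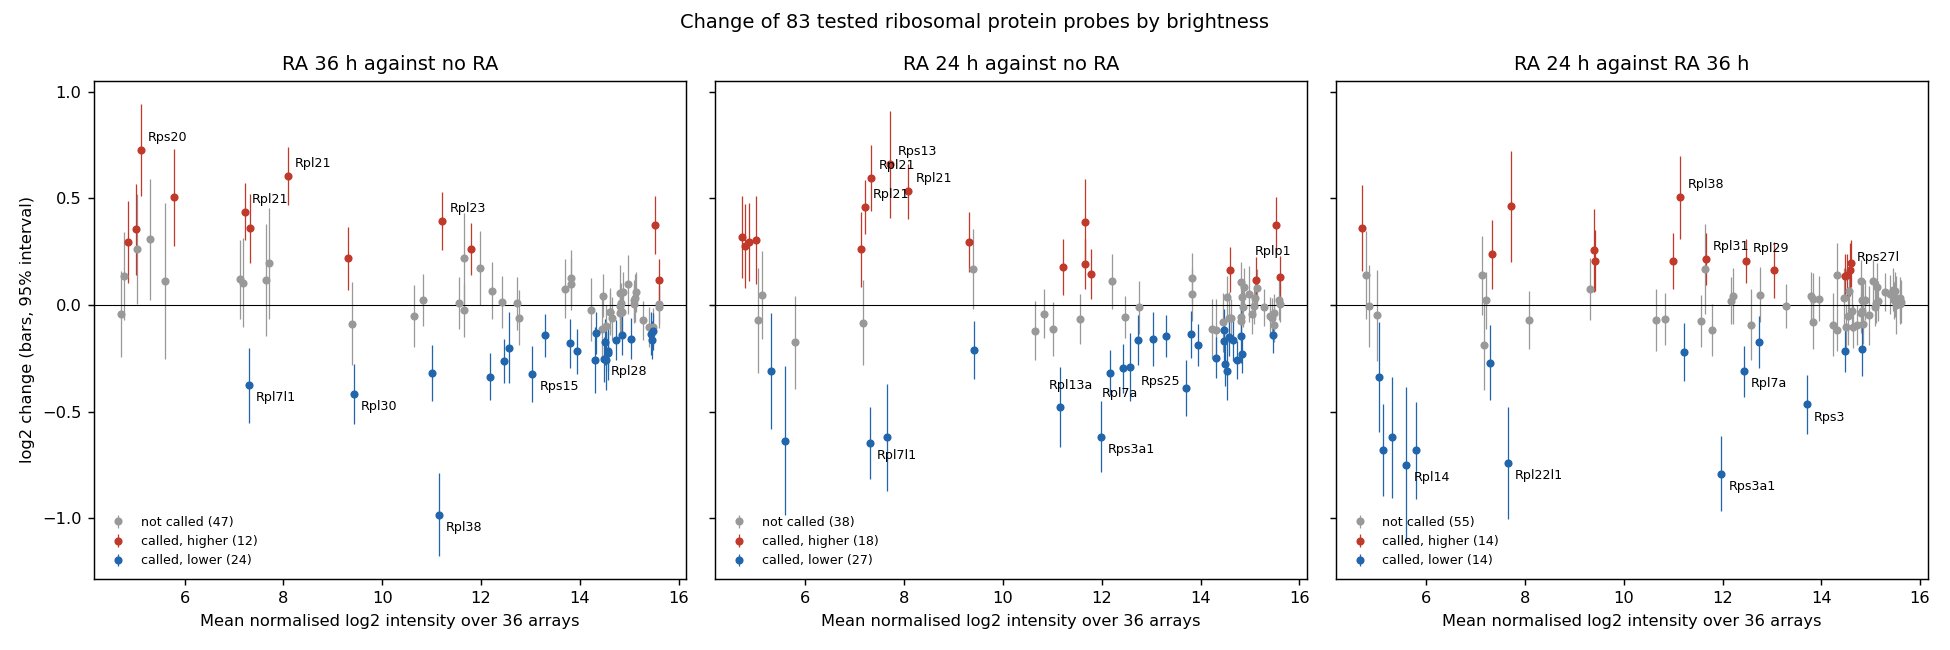
log2 change of the 83 tested member probes (vertical axis, bars 95% interval) against mean normalised log2 intensity over 36 arrays (horizontal axis) for RA 36 h against no RA, RA 24 h against no RA and RA 24 h against RA 36 h; red and blue points passed the threshold and gene names mark the largest called changes with one sign in all 11 treatments. Bright probes lie close to 0, and the changes beyond 0.5 lie among the probes with a mean under 13.

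The 24 h schedule was compared with no RA in the same way. Here 18 member probes rose and 27 fell (45 of 83, 54.2%), where 60.2% of all probes passed, 28.3% upward and 32% downward. The median change was -0.057 (-0.017 over all probes), and 7 members changed by more than 0.5. Large-subunit probes gave 11 rises and 18 falls, small-subunit probes 4 and 7, stalk probes 2 and 0, and paralogue probes 1 and 2. Bright members gave 4 rises and 16 falls, and 9 of the 17 dim members rose and 4 fell. This split turned around without quantile normalisation, to 34 rises and 15 falls under both centrings (19 and 6 for bright members), and the authors' values gave 30 and 31, so no direction of the family as a whole is given for RA 24 h. Under all 5 scalings 18 probes rose and 15 fell, 2 (both Rps12 probes) were called in both directions and 16 were never called.

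Rps3a1, a small-subunit protein, fell most clearly. It read 11.97, 12.10 and 12.46 without RA, 11.10, 11.56 and 11.84 with RA for 24 h and 11.91, 12.29 and 12.63 with RA for 36 h. All 11 arrays of RA 24 h lay below all arrays of both other schedules, which overlapped. The fall was 1.53-fold against no RA (-0.62, SE 0.082, adjusted p = 3.2e-07) and was seen in 11 of 11 treatments. It was smaller for the 5 compounds of slides 3 and 5 (-0.39) than for the 5 of slides 4 and 6 (-0.91). The dimmer probe of Rpl7l1, a paralogue of the large-subunit gene Rpl7, read 7.28, 7.68 and 7.86 without RA, 6.60, 7.00 and 7.33 with RA for 24 h and 6.81, 7.26 and 7.50 with RA for 36 h. The RA groups touched the lower end of the group without RA, and it fell by 0.65 (SE 0.082, adjusted p = 1.6e-07) and, after 36 h, by 0.38 (adjusted p = 0.00052). The brighter Rpl7l1 probe did not pass (-0.07, adjusted p = 0.32).

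Rpl7a, a large-subunit protein, read 12.38, 12.52 and 12.79 without RA, 12.07, 12.25 and 12.35 with RA for 24 h and 12.37, 12.57 and 12.71 with RA for 36 h. As for Rps3a1, the RA 24 h arrays lay below both other groups, and Rpl7a fell by 0.30 (SE 0.056, adjusted p = 6.1e-05). Rpl13a read 12.17, 12.39 and 12.46 without RA and 11.94, 12.08 and 12.17 with RA for 24 h, the groups meeting only at the Mock array without RA, and fell by 0.32 (SE 0.051, adjusted p = 7.4e-06). Rps25, a small-subunit protein that human and yeast cells need for translation from some viral internal entry sites, fell by 0.29 (adjusted p = 0.0022, 11 of 11 treatments). Its fall of 0.20 after 36 h (adjusted p = 0.04) lost its call in 9 of 23 alternative settings, among them slide as a random block (adjusted p = 0.17). The 1 bright probe each of Rpl26 (-0.25), Rpl27a (-0.23) and Rpl23 (-0.26) whose groups did not overlap fell with it.

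Among rises after 24 h, the dimmer Rps13 probe read 7.17, 7.44 and 7.82 without RA, 7.85, 8.02 and 8.38 with RA for 24 h and 7.11, 7.71 and 8.05 with RA for 36 h. Only the 24 h group lay wholly above the group without RA. It rose by 0.66 (SE 0.121, adjusted p = 4.1e-05), and the brighter Rps13 probe did not pass (0.04, adjusted p = 0.49). Rpl21 rose on all 3 probes, by 0.60, 0.53 and 0.46. In total, 7 members did not overlap between RA 24 h and no RA and 4 between RA 36 h and no RA, where 12.8% and 16.8% of all probes did not.

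**Figure D3:**
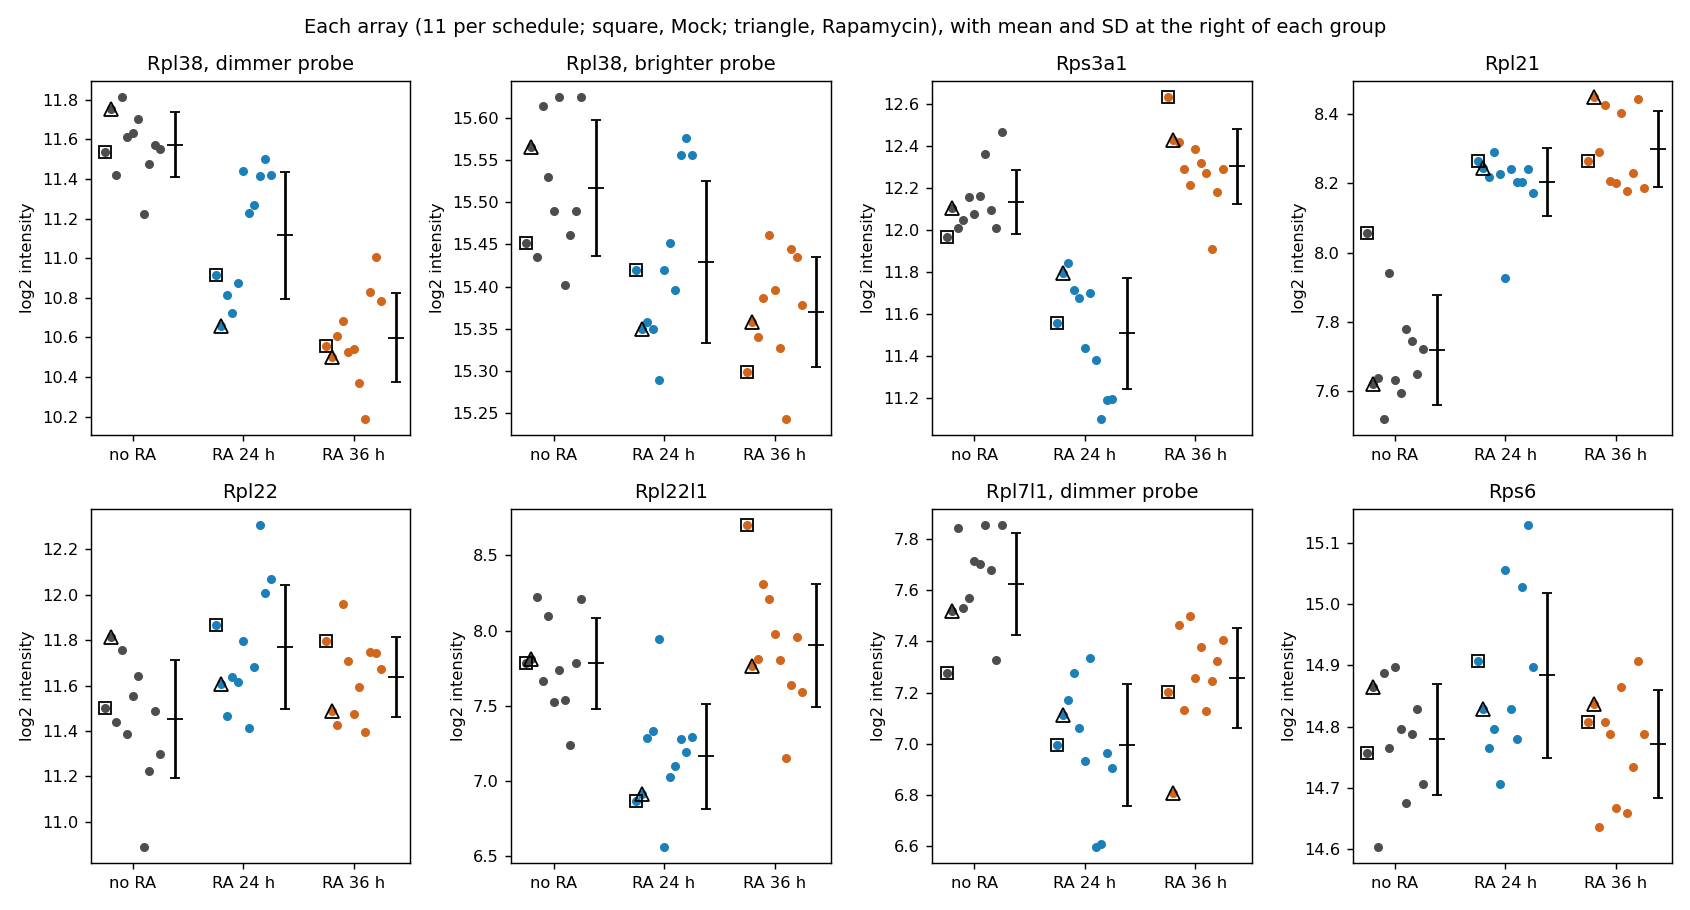
Normalised log2 intensity (vertical axes) of each of the 11 matched arrays without RA, with RA for 24 h and with RA for 36 h, for Rpl38 (both probes), Rps3a1, Rpl21, Rpl22, Rpl22l1, Rpl7l1 (dimmer probe) and Rps6; squares mark Mock, triangles Rapamycin, and the bar at the right of each group is the mean with its SD. Rpl38 (dimmer probe) is lowest after 36 h, Rps3a1 and Rpl22l1 are lowest after 24 h and Rpl21 is higher in both RA groups.

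RA 24 h was then set against RA 36 h, which asks whether the members differ between the RA schedules. They were higher at 24 h for 14 probes and lower for 14 (28 of 83, 33.7%), where 37.4% of all probes passed, 19.8% higher and 17.6% lower. The split depends on the scaling: it was 19 and 19 in the authors' values, 16 and 15 with an offset of 50, and 26 and 10 or 17 and 11 without quantile normalisation, centred on the median or the 75th percentile. Under all 5 scalings 14 probes were higher and 9 lower. With quantile normalisation 8 of the 46 bright members passed (17.4%), and 9 to 18 did under the other scalings, against 142 of 413 other probes as bright (34.4%) with quantile normalisation. Rps3a1 was lower at 24 h by 0.79 (SE 0.085, adjusted p = 1.3e-07), a change of -0.79 seen in 11 of 11 treatments. The dimmer probe of Rps3, a small-subunit protein, read 13.07, 13.41 and 13.69 with RA for 24 h and 13.69, 13.85 and 14.16 with RA for 36 h. Its groups met at 1 value, and the difference was -0.46 (SE 0.067, adjusted p = 5.8e-06); the brighter Rps3 probe did not pass (0.03). Rpl14 read 4.48 to 5.78 over the arrays of RA 24 h and 5.05 to 6.59 over those of RA 36 h, with medians of 5.2 and 5.92, and its difference was -0.75 (SE 0.178, adjusted p = 0.0016), detected on 28 of 36 arrays. Rpl7a (-0.31), Rpl22l1 (-0.74) and the dim probe of Rplp0 (-0.68) were lower at 24 h too. Rpl38 (dimmer probe, 0.50), 1 probe of Rpl31 (0.22), Rpl29 (dimmer probe, 0.21) and Rps27l (0.17) were higher at 24 h in 11 of 11 treatments. The Rps27l call was lost in 6 of 23 alternative settings, among them slide as a random block (adjusted p = 0.13). Rpl7a and Rps3a1 were the members whose groups did not overlap, and 2.63% of all probes did not.

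The comparison can also be read within 2 sets of 5 compounds, each set on its own 3 slides. Of the called members, 36 of 36 (RA 36 h against no RA), 44 of 45 (RA 24 h against no RA) and 26 of 28 (RA 24 h against RA 36 h) had 1 sign in both sets. The sets are parts of the arrays that gave the calls, so a shared sign was likely from the outset and is not a replication. In both sets slides and schedules coincide. The exceptions were Rpl19 (0.01 and -0.35), the dimmer probe of Rps13 (-0.03 and 1.03) and 1 probe of Rps24 (-0.02 and 0.60). Size was less even than sign: after RA for 24 h the dimmer Rpl38 probe changed by -0.74 in one set and -0.14 in the other, Rpl39 by -0.55 and -0.10, and Rpl14 by -0.28 and -1.12. After RA for 36 h the sets were closer, at -1.07 and -0.87 for the dimmer Rpl38 probe and 0.76 and 0.64 for Rps20. With slide as a fixed block, RA or not rests on the Mock array that shared its slide with arrays of RA 36 h, and 1 member (the Rpl27a probe at 11.79, with a change of 0.87 and adjusted p = 0.019) passed, where 10.6% of all probes did. Among the others, none of which passed, the dimmer Rpl38 probe was at -0.99 (adjusted p = 0.11), Rps20 at 0.99 (0.19) and the brightest Rpl21 probe at 0.41 (0.43). The dimmer probes of Rpl30 (0.05) and Rpl7l1 (-0.01), Rps15 (-0.07) and Rpl39 (-0.07) were near 0, while Rps25 (0.46) and the dim Rplp0 probe (-0.82) had the opposite sign to their changes after 36 h. With slide as a random block the calls were 27, 29 and 14 in place of 36, 45 and 28.

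Probes of 1 gene did not always have the same call. Of the 20 genes with several probes on the array, all tested probes had 1 call in 9 genes for RA 36 h, 7 for RA 24 h and 7 between the RA schedules. In most of these genes that shared call was that no probe passed. In the quantile-normalised values, all probes rose or fell together for Rpl21, Rpl38 and Rps12 after 36 h and for Rpl21 after 24 h. Between the RA schedules this held for Rps13. For Rpl38 the shared fall depends on the scaling, since its brighter probe turned upward in the authors' values and without quantile normalisation. Opposite calls were made for Rpl23 and Rpl27a after 36 h, and for Rpl23, Rpl27a and Rpl28 after 24 h. Rpl23, a large-subunit protein known in human cells to bind MDM2, had a probe that rose by 0.40 after 36 h (10.83, 11.03 and 11.20 without RA against 11.23, 11.44 and 11.57, not overlapping) and a brighter one that fell by 0.16 (14.73, 14.86 and 14.97 against 14.60, 14.71 and 14.78). The brightest Rpl23 probe did not pass after 36 h (0.06, adjusted p = 0.45). For Rpl27a, the probe at 14.57 fell by 0.22 without overlap (14.63, 14.68 and 14.77 against 14.36, 14.44 and 14.62) while the probe at 11.79 rose by 0.26. For Rpl28 after 24 h, the bright probe fell by 0.12 and the dim one rose by 0.26. The falls after 24 h of the bright Rpl28 probe and of the Rpl27a probes at 14.57 and 14.85 were called in 3 of 5 scalings, so the opposite calls of Rpl27a and Rpl28 after 24 h depend on the scaling. The array does not tell which of these probes follows the protein-coding transcript. Counted over the brightest probe of each of the 56 genes, 4 rose and 16 fell after 36 h, and 7 rose and 19 fell after 24 h.

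The paralogues, some of which replace their parents in particular tissues, were read beside those parents. Rpl22 and Rpl22l1, which bind the same RNA targets and of which Rpl22 is known in mice to repress Rpl22l1, moved in opposite directions after 24 h. Rpl22 read 10.89, 11.49 and 11.81 without RA, 11.41, 11.68 and 12.31 with RA for 24 h and 11.39, 11.67 and 11.96 with RA for 36 h, all overlapping. It rose by 0.39 after 24 h (SE 0.098, adjusted p = 0.0013; 8 of 11 treatments), by 0.04 in one slide set and 0.59 in the other, and did not pass after 36 h (0.22, adjusted p = 0.072). Rpl22l1 read 7.24, 7.78 and 8.22 without RA, 6.56, 7.19 and 7.95 with RA for 24 h and 7.15, 7.81 and 8.70 with RA for 36 h. Its 24 h group was lowest but overlapped both others, and it fell by 0.62 (SE 0.123, adjusted p = 0.0001; 10 of 11 treatments), with -0.66 and -0.52 in the slide sets, and did not pass after 36 h (0.12, adjusted p = 0.45). Whether the changes of Rpl22 and Rpl22l1 differ from each other was not tested.

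Rps27l, a p53 target, read 14.33, 14.68 and 14.93 without RA, 14.41, 14.60 and 14.83 with RA for 24 h and 14.25, 14.44 and 14.64 with RA for 36 h. It fell by 0.22 after 36 h (adjusted p = 0.0027) with overlapping groups, and did not pass after 24 h (-0.06, adjusted p = 0.38). Rpl3l, the muscle paralogue of Rpl3, was detected on 4 of 36 arrays, near background, and rose by 0.32 after 24 h (adjusted p = 0.0046), while Rpl3 did not pass in either RA schedule (-0.03 and -0.06). Rpl7, Rpl10 and Rps27, parents of other paralogues, have no member probe here. Rpl39, the parent of Rpl39l, fell by 0.26 (adjusted p = 0.0018) and 0.31 (0.00017). Rps4x did not pass after 36 h (0.03), and its rise of 0.12 after 24 h (adjusted p = 0.049) lost its call with slide as a random block (adjusted p = 0.16) and without any 1 of 9 compounds. Over the 36 arrays with schedule means removed, the named genes outside the family most like Rpl22l1 were Rgs10 (Pearson r = 0.75) and Cox6c (0.75), and those most like Rps27l were Thyn1 (0.83) and Afdn (0.82). These arrays share schedules, compounds and slides.

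In the stalk, Rplp0 anchors the acidic proteins Rplp1 and Rplp2, which recruit translation factors. Rplp1 read 15.28, 15.53 and 15.68 without RA, 15.64, 15.68 and 15.71 with RA for 24 h and 15.56, 15.68 and 15.71 with RA for 36 h. The RA arrays crowd the top of the scale, where 15.71 is the highest value quantile normalisation gives, and the groups overlap. It rose by 0.12 after 36 h (adjusted p = 0.049) and 0.13 after 24 h (0.019). These calls were lost in 9 and 3 of 23 alternative settings, both of them with slide as a random block (adjusted p = 0.18 and 0.10). Over the 5 scalings the change ran from 0.12 to 0.41 after 36 h and from 0.13 to 0.52 after 24 h. The brighter Rplp0 probe did not pass (0.02 and -0.04). The dim Rplp0 probe read 5.25, 5.52 and 6.42 without RA against 5.79, 6.24 and 6.44 after 36 h, overlapping, and rose by 0.51 (adjusted p = 0.00033). The brighter Rplp2 probe fell by 0.26 after 36 h (adjusted p = 0.0047) and did not pass after 24 h (-0.12).

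Rps6, the S6 kinase substrate, read 14.60, 14.79 and 14.90 without RA, 14.71, 14.83 and 15.13 with RA for 24 h and 14.64, 14.79 and 14.91 with RA for 36 h. The groups overlap, and the 24 h group reaches higher than both others. Its changes were -0.01 (95% interval -0.11 to 0.10, adjusted p = 0.94) after 36 h and 0.11 after 24 h (0.01 to 0.20, adjusted p = 0.05, not past the threshold). The 24 h change of Rps6 passed in 11 of 23 alternative settings, 4 of them other scalings, with values up to 0.21 (adjusted p = 0.003 to 0.15 over all 23). Rpl10a, a large-subunit protein that marks a subset of ribosomes in mouse embryonic stem cells, did not pass (0.06, adjusted p = 0.28, and 0.08, adjusted p = 0.12). Rpsa, outside the pattern and read by a dim probe, did not pass after 36 h (-0.24, adjusted p = 0.064) and fell by 0.63 after 24 h (adjusted p = 1.4e-05). Among 32 probes of 20 genes with a tract 3 rose and 11 fell after 36 h, and among 38 probes of 27 genes without one 4 rose and 11 fell, where 26% and 29% of all probes did. These counts are of the quantile-normalised values, and their difference was not tested.

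Rapamycin was set against Mock to ask whether an mTOR inhibitor moved the members' mRNA levels. None of the 83 probes passed (limma; smallest adjusted p = 0.77), none had an unadjusted p under 0.05, and 0% of all tested probes passed, though 1648 of these had an unadjusted p under 0.05. The median change was -0.002, from -0.55 (Rpl14) to 0.37 (the dimmest Rpl27a probe). The design holds 3 arrays against 3, with a median standard error of 0.116, and the 95% interval lay within 0.5 of 0 on the log2 scale for 71 of 83 probes. For the 46 bright probes the intervals ran from -0.51 to 0.34, so smaller changes are not excluded. The count of 0 held under each alternative run, and changes of the median under other scalings are given with the sensitivity results.

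Rps6 with Rapamycin read 14.86 without RA, 14.83 with RA for 24 h and 14.84 with RA for 36 h, against 14.76, 14.91 and 14.81 with Mock. The Rapamycin arrays were higher in 2 schedules and lower in 1, and the change was 0.02 (interval -0.18 to 0.22). Rpl41, the smallest ribosomal protein, changed by 0.01 (-0.18 to 0.20), and Rplp1 by -0.05 (-0.25 to 0.15). The dimmer Rpl38 probe read 11.75, 10.66 and 10.50 with Rapamycin against 11.54, 10.91 and 10.56 with Mock, a change of -0.03 (-0.41 to 0.35). Rps3a1 read 12.11, 11.80 and 12.43 against 11.97, 11.56 and 12.63, a change of 0.06 (-0.28 to 0.40). Both thus followed the schedule with Rapamycin as with Mock. Rpl14, the lowest change, read 5.33, 4.95 and 6.05 against 5.64, 5.78 and 6.59, lower in 3 of 3 schedules, with an interval of -1.26 to 0.15. Rps27l read 14.53, 14.41 and 14.39 against 14.72, 14.55 and 14.55, lower in 3 of 3, with a change of -0.16 (-0.40 to 0.08).

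Against the other 9 compounds, which give 27 comparison arrays, Rapamycin again had 0 members past the threshold, with 0% of all probes called and 1 member at an unadjusted p under 0.05. That was the dimmest Rpl21 probe, at 6.72, 7.29 and 6.96 without RA, with RA for 24 h and for 36 h, a change of -0.23 (-0.42 to -0.03, lower in 3 of 3 schedules), which the other Rpl21 probes did not show beyond their errors. The median change was 0.005 and the intervals lay within 0.5 of 0 for 81 of 83 probes. Changes of bright members were bounded between -0.32 and 0.26. No member lay outside the range of the other 9 compounds on 1 side in all 3 schedules. Against the 4 compounds of its own slides 0 members passed and 2 had an unadjusted p under 0.05, with a median of 0.013, and 0% of all probes passed. The test of whether Rapamycin differed from the other 9 compounds to another degree with RA gave 0 members and 0% of all probes (1 member at an unadjusted p under 0.05, Rpl22, -0.56). Probes of genes with a tract had a median change of 0.019 with Rapamycin against Mock, and probes of genes without one -0.014.

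**Figure D4:**
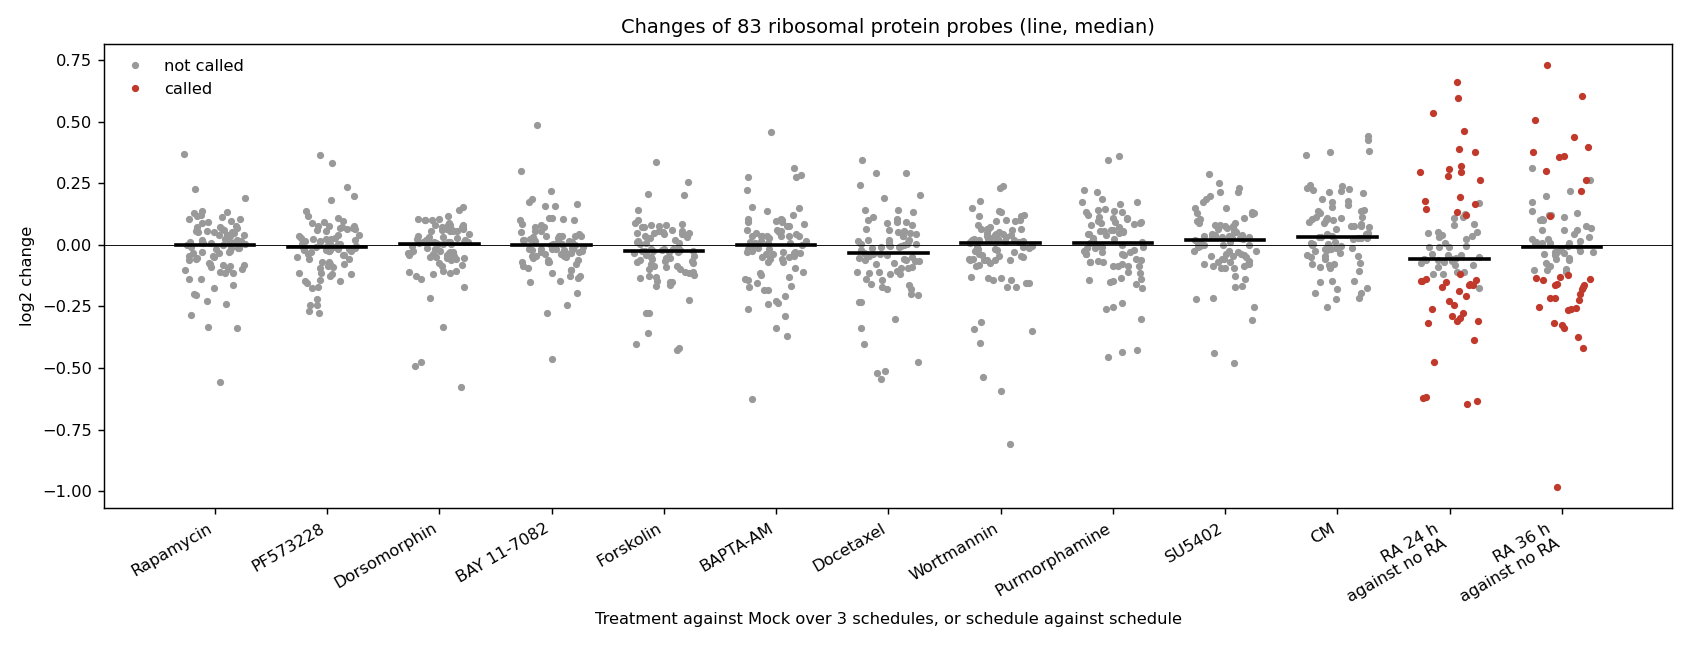
log2 change of the 83 tested member probes (vertical axis; points, with the median as a line) for each compound and CM against Mock over 3 schedules and for the RA schedules against no RA; red points passed the threshold. No probe passed for any compound or CM, and the medians lie near 0 in every column.

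Wortmannin, which acts upstream of mTOR, also gave 0 members past the threshold against Mock (0% of all probes; 5 members at an unadjusted p under 0.05; smallest adjusted p = 0.53). Its lowest changes were those of the dim probes of Rpl14 (-0.81), Rps20 (-0.59) and Rplp0 (-0.54). The other 8 compounds gave 0 members each against Mock, where 0.0792% of all probes passed for Docetaxel and 0% for the rest. At an unadjusted p under 0.05 there were 0 members for PF573228, 1 each for BAY 11-7082, Purmorphamine and SU5402, 2 each for Dorsomorphin and Forskolin, 4 for BAPTA-AM and 5 for Docetaxel. The farthest changes among these 8 were -0.63 for Rps20 with BAPTA-AM and 0.49 for 1 probe of Rpl23 with BAY 11-7082, and medians lay between -0.032 (Docetaxel) and 0.019 (SU5402). Against the other 9 compounds each of the 10 again gave 0 members, with 0.229% of all probes called for Docetaxel. These comparisons share the Mock arrays or each other's arrays, and their values are not independent. Within each schedule Wortmannin, BAPTA-AM, Docetaxel, Purmorphamine and SU5402 lay on another slide than Mock, so slide differences may be part of their changes against Mock. Rapamycin and the remaining compounds shared a slide with Mock in both RA schedules but not without RA.

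CM was set against Mock with 3 arrays each, of which CM had 2 without RA and none at RA 36 h. The CM arrays lay on slides 4, 5 and 6 and the Mock arrays on slides 1, 2 and 3. The main fit has no slide term, so slide differences may be part of the changes below. No member passed (limma), where 2.63% of all probes did, and 5 members had an unadjusted p under 0.05. The authors' values called 2 members, and 3 other settings called 1 each. One probe of Rpl21 was highest, with a change of 0.44 (0.18 to 0.70, adjusted p = 0.060), followed by 1 probe of Rps24 (0.43, adjusted p = 0.25) and Rps15a (0.38, adjusted p = 0.16). Rpl41 changed by -0.21 (-0.41 to -0.02, adjusted p = 0.25) and the dimmer Rpl38 probe by 0.38 (-0.01 to 0.76). The median change was 0.033.

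Genes that build and regulate ribosomes were counted with 1 probe per gene, against the same 55% (RA 36 h) and 60.2% (RA 24 h) of all probes. Of 34 listed ribosome biogenesis factors 29 were tested, and 2 rose and 16 fell after 36 h and 2 rose and 24 fell after 24 h, with medians of -0.21 and -0.38. Nol6, a nucleolar factor of the small subunit's processome, read 11.20 ± 0.24 (SD, n = 11) without RA, 10.65 ± 0.16 with RA for 24 h and 10.43 ± 0.15 with RA for 36 h, changes of -0.61 (adjusted p = 6.4e-07) and -0.80 (1e-08). Ncl, the nucleolar protein nucleolin, fell by 0.38 and 0.61 after 36 h and 24 h, and Tcof1, a cofactor of rRNA synthesis, by 1.0 after 24 h (adjusted p = 1.1e-07) without passing after 36 h (-0.26). Pes1, a large-subunit assembly factor, rose by 1.0 and 0.57. Of 9 tested RNA polymerase I genes 3 rose and 4 fell after 36 h and 2 rose and 6 fell after 24 h, with Ubtf, which opens rRNA gene chromatin, at -0.60 and -0.66. The difference between these lists and the members was not tested.

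Of 74 tested mitochondrial ribosomal proteins, 10 rose and 35 fell after 36 h and 13 rose and 33 fell after 24 h, the latter becoming 21 and 21 without quantile normalisation. Of 14 other genes known for a TOP tract, 3 rose and 1 fell after 36 h, and 0 rose and 7 fell after 24 h. Eif4b, an initiation factor, rose by 0.47 after 36 h (adjusted p = 0.00067) and fell by 0.63 after 24 h (9.8e-06). Pabpc1, the poly(A)-binding protein, fell by 0.67 after 24 h and did not pass after 36 h (0.05). In the mTOR pathway, with 22 genes tested and Rps6 among them, 2 rose and 10 fell after 36 h and 4 rose and 11 fell after 24 h. Larp1, which binds TOP mRNAs, fell by 0.52 (adjusted p = 5.6e-07) and 0.86 (3e-11), Deptor, an mTOR inhibitor, by 1.14 and 1.01, and Mtor did not pass (0.09 and 0.14). In the MYC family, regulators of ribosome genes, 3 of 7 tested genes rose and 2 fell after 36 h, and 2 rose and 2 fell after 24 h. Mycl rose by 0.97 and 0.94 after 36 h and 24 h, Mxd4 rose by 0.92 and 1.38, and Max fell by 0.27 and 0.50. Myc rose by 1.05 after 36 h (adjusted p = 1.3e-06) and did not pass after 24 h (-0.07). No gene of these lists passed with Rapamycin.

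**Figure D5:**
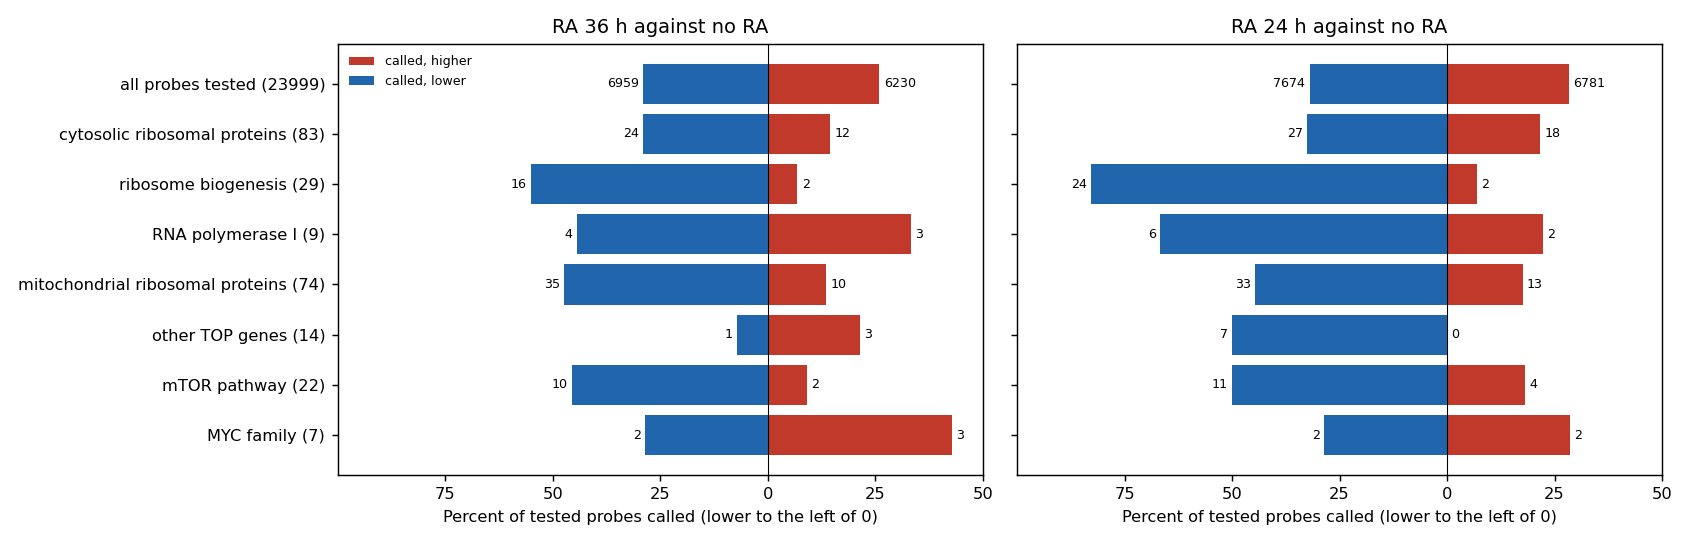
Percent of tested probes called higher (red, right of 0) and lower (blue, left of 0) for RA 36 h and RA 24 h against no RA, with the number called beside each bar; the members are counted over 83 probes and the lists with 1 probe per gene. After 24 h 24 of 29 ribosome biogenesis genes fell, and 27 of 83 ribosomal protein probes did. All bars show quantile-normalised values, and the members' split after 24 h turned around without quantile normalisation. The difference between the lists and the members was not tested.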

How the data were processed

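For each of 36 arrays the authors deposited raw probe intensities. Beside each intensity stands a deposited detection p-value, named so in the header. They also deposited log2 values which, per the series' design text, they made with the package lumi (variance stabilisation and robust spline normalisation; version not given in the sources used here). Whether the scanner software had subtracted background is not given there either, and 30.2% to 36.6% of an array's raw intensities lay below 0. Between 37.1% and 43.1% of probes were detected on an array, and array mean intensities ran from 336 to 692. Gene symbols came from GEO's platform annotation, with 1 symbol for 34885 probes, several for 18 and none for 10378.

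Raw intensities were normalised with neqc of limma 3.58.1 (R 4.3.3; normexp background from the detection p-values, offset 16, quantile normalisation), which gives the normalised log2 intensity. Probes detected on at least 3 arrays were kept. Each was fitted with an additive model of schedule and treatment over all 36 arrays (22 residual degrees of freedom) with moderated variances, so that RA contrasts compare matched treatments and compound contrasts compare treatments within schedules. The test of Rapamycin with and without RA fitted each treatment with and without RA, plus a term for RA 24 h (11 degrees of freedom). P was adjusted by Benjamini and Hochberg over the 23999 probes with a threshold of 0.05, and intervals are 95%. Levels are given for the 11 treatments found in every schedule. The 2 CM arrays without RA shared no identical set of values. Scripts were tested on simulated data.

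Named by rule were the 5 largest called rises and falls with 1 sign in every matched treatment, the paralogues with their parents, Rps6, Rplp0, Rplp1, Rplp2, Rpl5, Rpl11, Rpl38, Rpl10a, Rps25 and Rpsa, and genes whose probes disagreed; other members named were chosen after their values were seen. The members, gene lists and tests were chosen with earlier results of these data known. Alternatives were the authors' values, 2 centrings without quantile normalisation, offset 50, a stricter and no detection filter, 1 probe per gene, compound arrays only, slide as a fixed or random block, robust trended variance and leaving out each treatment or schedule. Chosen after seeing the data were the fit without CM, the medians of bright members and the split by slide sets.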

Additional observations from a re-analysis of the deposited data

How the results depend on the processing

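The treatment term of the fit pairs the schedules by treatment. By replicate number, no paired analysis was possible because the labels share none between groups. The calls of member probes after RA for 36 h, RA for 24 h and between them became 22, 28 and 15 with 1 probe per gene, where fewer probes are tested, and 29 (RA for 24 h) and 14 (between them) with slide as a random block. For CM the count of 0 became 2 in the authors' values and 1 each with median centring, with offset 50 and with detection p under 0.01 on at least 11 arrays. Leaving out 1 treatment at a time gave 33 to 40, 39 to 44 and 21 to 28 calls for the RA comparisons. The compound and CM comparisons were not refitted in that way. Leaving out 1 schedule at a time gave 0 calls for Rapamycin, Wortmannin, the other compounds and CM.

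The median change of members moved for RA 36 h to 0.072 (75th percentile) and -0.0496 (bright members), and for RA 24 h to -0.021 (authors' values), 0.039 (median centring) and 0.038 (75th percentile). Between the RA schedules it moved to 0.121 and 0.071 under the 2 centrings. For Rapamycin against Mock it moved to -0.071 and -0.077 under them, and against the other 9 compounds to 0.029 with slide as a fixed block. Leave-one-out medians ran from -0.017 to 0.003, from -0.057 to -0.044, from 0.007 to 0.021, from -0.018 to 0.013 and from -0.008 to 0.016 in the same order. The brighter Rpl38 probe reversed for RA 36 h, to 0.0641, 0.0698 and 0.12, and for RA 24 h, to 0.15, 0.29 and 0.28, in the authors', median-centred and 75th-percentile values; the cause was not tested. Of the values of named members under alternatives, 1659 kept their side of the threshold, 43 lost and 35 gained the call, and 6 were counted as reversed, those of Rpl38 above. Where a member passed neither in the main fit nor in the alternative, its sign was not compared. Some such values changed sign, as for Rpl39 between the RA schedules (-0.08 to 0.06). With slide as a fixed block, the comparisons with RA 24 h could not be fitted, since those slides held no other schedule, and RA 36 h rests on 1 Mock array. Low signal over background limits the dim probes.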
